A study of Homo sapiens with 12 samples.

Results

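Ribosome biogenesis and nucleolar factors were followed through replicative senescence of IMR90, a primary line of normal human fetal lung fibroblasts. The 48 genes were taken from a list of symbols, with no cut-off on a measured value. The list was chosen with earlier results of these data known. All 48 were found among the 38716 gene symbols of the tables, and all 48 passed edgeR's filter on low counts in the mRNA, footprint and efficiency tests below. They were grouped by role into 5 factors of RNA polymerase I transcription, 4 proteins of box C/D small nucleolar ribonucleoproteins (snoRNPs) and their U3 relative, 4 proteins of box H/ACA snoRNPs, 2 abundant nucleolar proteins, 3 nucleolar cofactors, 13 factors of small subunit assembly, 16 factors of large subunit assembly, and MYC.

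The 2 states compared were proliferating cells (Pro) and cells passaged until replicative exhaustion (Sen). The labels give no other treatment, and 3 independently grown cultures of each state were lysed. Every lysate gave 1 Ribo-seq library, which holds the mRNA fragments shielded by ribosomes, and 1 RNA-seq library, so the series has 12 libraries in 4 groups of 3. The growth protocol names a pair of isolates of the line without tying them to samples, and the files of the Pro RNA-seq libraries carry a tag resembling the solvent name DMSO that the labels lack, so neither isolate nor solvent can be told apart from the state. In bulk lysates fewer expressing cells and less RNA per cell cannot be told apart either.

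Ribosomes are built mainly in the nucleolus. RNA polymerase I transcribes a long precursor rRNA there, snoRNPs modify it by 2′-O-methylation (box C/D) and pseudouridylation (box H/ACA), and a large set of assembly factors folds and cuts it while ribosomal proteins are added, until the small and large subunits leave for the cytoplasm. MYC is a transcription factor known to bind many of these genes through a DNA motif called the E-box, and dividing cells are known to make more ribosomes than resting ones.

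Depth in mRNA regions was 7902301 to 14144345 reads per RNA-seq library, and depth in coding sequences (CDS) was 54323 to 1718431 reads per Ribo-seq library. Pro 1 and Sen 2, called the shallow Ribo-seq libraries, together held 2.28% of the CDS reads, and there 3 reads of a gene already amounted to 52.1 and 52.7 CPM, as for NHP2 in Pro 1 and TSR1 in Sen 2. Levels are in CPM, counts scaled to a common library size by edgeR's TMM method. Those of the cell type and state markers below were scaled by library totals alone, without TMM. A member had a median of 4 footprint reads in Pro 1 and 3 in Sen 2, against 51, 140, 80 and 27.5 in Pro 2, Pro 3, Sen 1 and Sen 3. All 10 fibroblast markers, among them COL1A1 and VIM, exceeded 1 CPM in both states, with a summed level of 31530 to 36320 CPM in Pro and 27160 to 30790 CPM in Sen. The 4 epithelial markers summed to at most 2.62 CPM and the 4 endothelial ones to at most 2.49 CPM in any RNA-seq library, and SFTPC and CDH5 were at 0. The states differed as labelled: LMNB1, a nuclear lamina gene lost in senescence, averaged 66.4 CPM in Pro and 8.66 CPM in Sen, the cycling marker MKI67 154.9 and 29.3 CPM, HMGB2 111.9 and 19.3 CPM, and the cell cycle inhibitors CDKN1A 522.3 and 1475 CPM and CDKN2A 50.3 and 72.1 CPM. These moved with the state in the same libraries as the members, and their part in the results was not tested.

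The mRNA of 43 of the 48 members fell in senescent cells and that of 1, RRP12, rose. The level of mRNA was the sum of 5′ UTR, CDS and 3′ UTR reads, and a gene was called at a Benjamini-Hochberg adjusted p under 0.15 in edgeR's quasi-likelihood test over all genes, the false discovery rate of the published methods. Among all 12787 genes tested, 73.6% were called, 37% lower and 36.6% higher (44.5% and 30.2% when scaled by library totals alone), so 89.6% of members called lower stands beside 37% of all genes. The members' median log2 fold change (Sen over Pro) was -0.51, against -0.01 for all genes. In 42 members every Sen library lay below every Pro library, a pattern shown by 34.2% of all genes, and only RRP12 had every Sen library above, as did 33.5% of all genes. The 4 members not called were RRN3, EMG1, DDX10 and NOC2L.

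Footprints gave 28 members lower and 2 higher. Ribosome-protected fragments (RPF) of a gene are its CDS reads in Ribo-seq. Of 7521 genes tested, 54.4% were called, 26.9% lower and 27.5% higher (34.2% and 21.9% when scaled by library totals alone). The members' median log2 fold change was again -0.51 (all genes, -0.0033), but the standard errors (SE) were wider, with a median of 0.23 over the members against 0.08 for mRNA. Fewer members separated completely: 14 had all Sen libraries below all Pro libraries, as 15.7% of genes did, and none lay wholly above, as 16.8% did. Of the 43 members with lower mRNA, 26 also had lower footprints, 16 were not called in footprints and 1, BOP1, was higher. EMG1 and DDX10 had lower footprints without a called change in mRNA. The RPF count leans on single deep libraries and on the tool: without Pro 3 it was 14 lower, without Sen 1 16 lower, and with DESeq2 7 lower. With the replicate number as a block fewer members were called as well, as given in the closing section. FBL, NOLC1, NPM1, UTP20, HEATR1 and NOC3L were called lower in RPF under each of the alternatives that could test them.

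**Figure D1:**
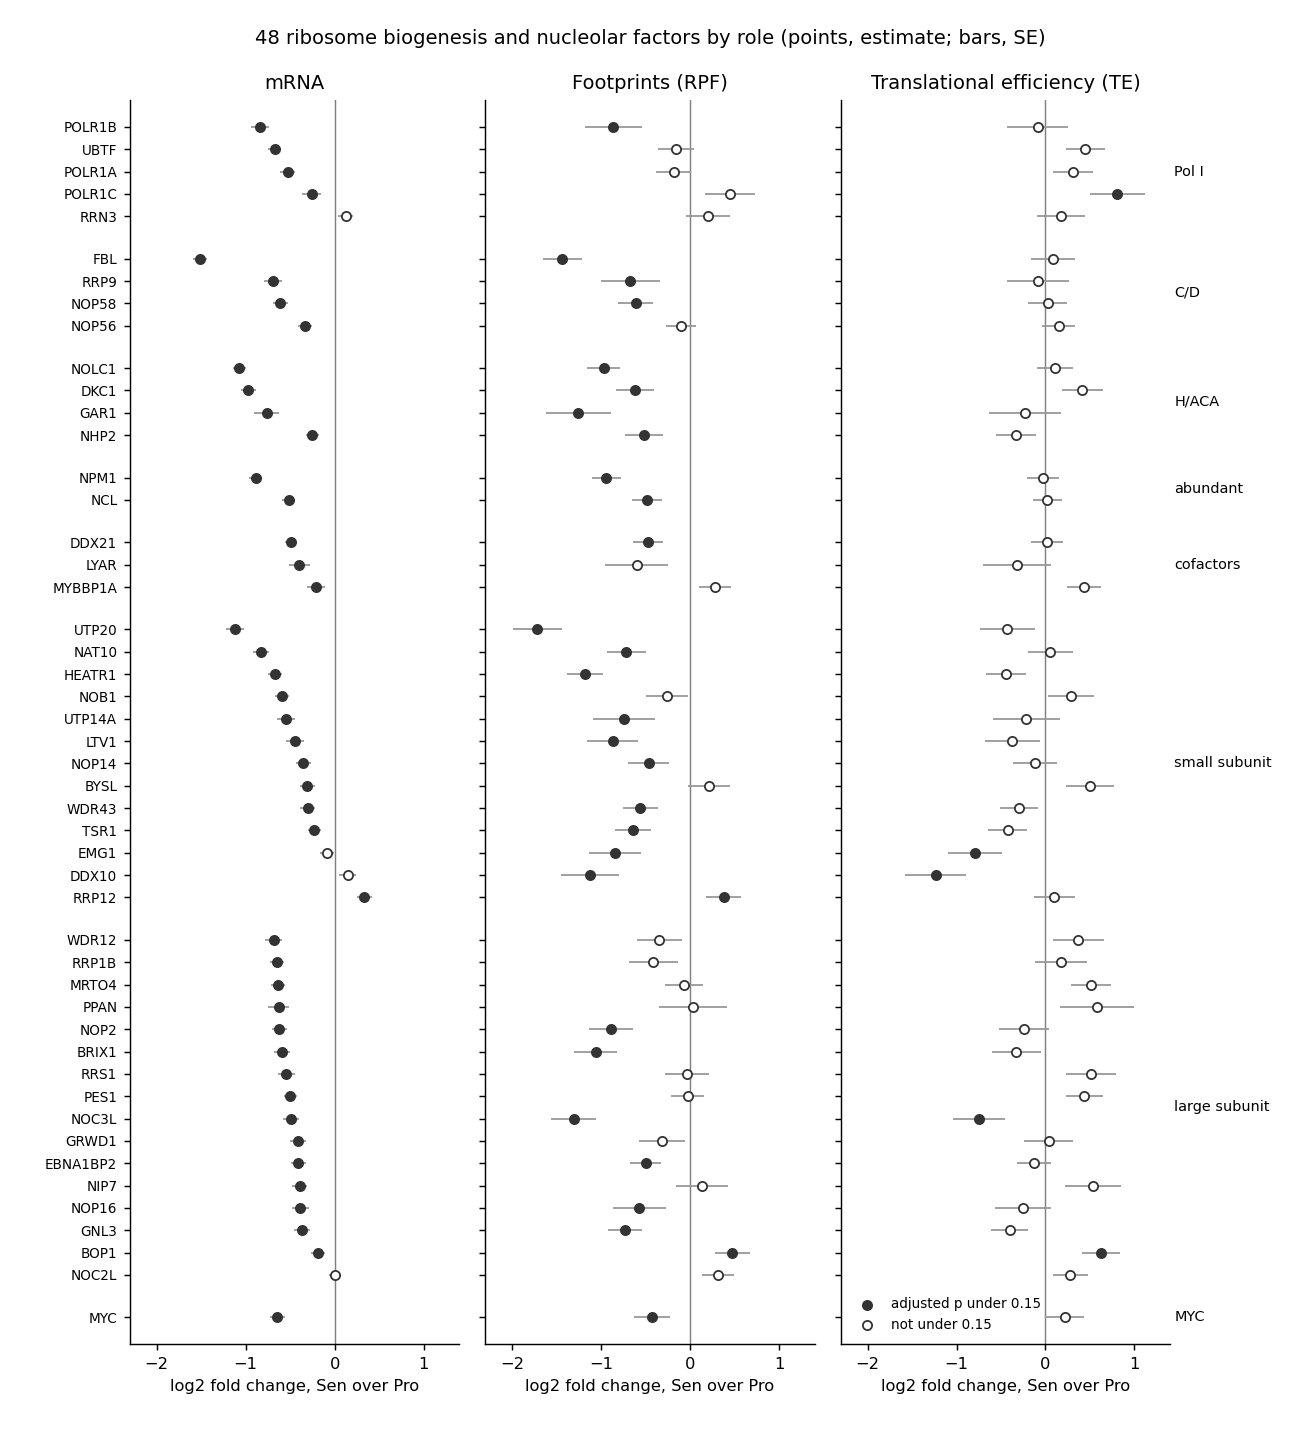
Log2 fold changes (Sen over Pro) of mRNA, footprints and translational efficiency for the 48 members, ordered by role; points are estimates, bars are SE, and filled points have an adjusted p under 0.15. In the mRNA panel 44 points are filled and 43 of these lie left of 0, whereas the efficiency panel holds 5 filled points.

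As a share of all mRNA reads, the members together made up 0.449%, 0.423% and 0.427% in Pro and 0.272%, 0.282% and 0.275% in Sen, or 0.433% ± 0.0140 against 0.276% ± 0.00484 (mean ± SD, n = 3). Each Sen library was thus below each Pro library. Their share of CDS footprints was 0.525%, 0.501% and 0.514% in Pro and 0.328%, 0.394% and 0.344% in Sen. All Sen values were again below all Pro values. The 0.394% of the shallow Sen 2 had a Wilson 95% interval from 0.345% to 0.450%, which covers counting error only. NCL and NPM1 carry a large part of these sums. Without both, the mRNA share was 0.289% ± 0.00729 in Pro and 0.193% ± 0.00145 in Sen.

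MYC mRNA measured 67.9, 64.3 and 62.5 CPM in the Pro libraries and 37.9, 39.9 and 46.6 CPM in the Sen libraries. It fell by 0.64 on the log2 scale (SE 0.08, edgeR adjusted p = 8.50e-07), with no overlap between the states. Its footprints were 104.1, 94.98 and 91.8 CPM in Pro and 61.6, 87.9 and 83.6 CPM in Sen, also without overlap. The Pro 1 value rests on 6 reads, and the Sen 2 value, next below Pro 3, on 5. The RPF change was -0.43 (SE 0.20, edgeR adjusted p = 0.0838), and over the alternatives this p ran from 0.0184 to 0.794. The highest of these came from leaving out Sen 1, the lowest of the Sen libraries, when the change was -0.13.

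Among the Pol I factors, 4 of 5 mRNAs fell and RRN3 was not called, while in footprints only POLR1B fell. POLR1A and POLR1B encode the largest and second largest subunits of the enzyme, POLR1C a subunit that Pol III shares, UBTF an HMG-box protein that coats ribosomal DNA, and RRN3 the factor that recruits the enzyme to the promoter. UBTF had the highest mRNA of these, 88.6, 89.2 and 84.2 CPM in Pro against 57.1, 51.4 and 56.1 CPM in Sen (log2 fold change -0.67, SE 0.07, edgeR adjusted p = 6.62e-08). UBTF footprints were 52.1, 87.6 and 88.2 CPM in Pro and 80.4, 35.2 and 77.8 CPM in Sen, and these ranges overlapped. POLR1B showed the lowest mRNA fold change of the group, from 23.9, 23.1 and 22.9 CPM to 13.3, 12.02 and 13.9 CPM (-0.84, SE 0.10, edgeR adjusted p = 3.16e-07). POLR1A and POLR1C mRNA fell by 0.53 (SE 0.09) and 0.26 (SE 0.11), POLR1C from 20.5, 22.6 and 20.4 CPM to 15.2, 19.4 and 18.2 CPM. The POLR1C call was lost in edgeR without Pro 2 (adjusted p = 0.167), without Sen 1 (adjusted p = 0.188) and with reads thinned to Ribo-seq depth (adjusted p = 0.791). RRN3 stood at 41.7, 40.0 and 44.8 CPM in Pro and 41.7, 48.1 and 47.7 CPM in Sen, which overlap (0.12, SE 0.08, edgeR adjusted p = 0.204). RRN3 is also uncertain in kind, since its pseudogenes RRN3P1, RRN3P2 and RRN3P3 have reads of their own in the tables and RRN3 counts were fractional in 10 of 12 libraries.

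All 4 box C/D members and all 4 box H/ACA members fell in mRNA, and 7 of these 8 genes also had lower footprints. FBL, fibrillarin, is the methyltransferase of box C/D particles and had the largest mRNA fall of all members. Its mRNA went from 110, 112 and 119 CPM in Pro to 41.3, 42.4 and 36.1 CPM in Sen, a log2 fold change of -1.51 (SE 0.08, edgeR adjusted p = 3.80e-13). FBL footprints dropped alongside, from 191, 113 and 107 CPM to 46.2, 35.2 and 31.1 CPM (-1.44, SE 0.22, edgeR adjusted p = 1.04e-07). Both layers separated the states completely, and the fitted Sen to Pro ratio was 0.351 for mRNA and 0.370 for RPF. The other core proteins of the same particle moved less. NOP58 mRNA fell by 0.61 and its RPF by 0.61 on the log2 scale, and RRP9, which marks the U3 particle, by 0.69 and 0.67. NOP56 mRNA fell from 138, 119 and 108 CPM to 99.3, 98.5 and 91.0 CPM (-0.33, SE 0.08), and its footprints of 208, 205 and 156 CPM in Pro overlapped the 165, 211 and 159 CPM in Sen (-0.10, SE 0.17, edgeR adjusted p = 0.659).

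In the H/ACA group NOLC1, a chaperone of snoRNPs also known as Nopp140, changed most in mRNA. Its 121, 113 and 118 CPM in Pro became 54.0, 55.0 and 57.9 CPM in Sen (log2 fold change -1.07, SE 0.07, edgeR adjusted p = 2.40e-11). NOLC1 footprints, 156, 157 and 160 CPM in Pro and 76.4, 87.9 and 89.4 CPM in Sen, were among the most even of the members. DKC1, the pseudouridine synthase of the particle, fell by 0.97 in mRNA (SE 0.08) and by 0.62 in RPF (SE 0.21). GAR1 mRNA fell by 0.76 and its RPF by 1.25, but GAR1 had only 111 footprint reads over all libraries. NHP2 changed least in mRNA, from 103, 94.9 and 92.7 CPM to 83.5, 81.1 and 80.0 CPM (-0.25, SE 0.07, edgeR adjusted p = 4.71e-03). The H/ACA particle did not fall as a whole. NOP10, an H/ACA protein outside the members, rose in mRNA without overlap (0.42, SE 0.09, edgeR adjusted p = 2.97e-04). Its RPF change of -0.17 (SE 0.22) was not called. NOP10 is among the further pathway genes below, where 6 of 9 snoRNP mRNAs were lower and 2 higher.

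NCL and NPM1, nucleolin and nucleophosmin, are the members with the most reads. NCL mRNA was 726, 678 and 678 CPM in Pro and 479, 491 and 483 CPM in Sen, a fall of 0.52 on the log2 scale (SE 0.07, edgeR adjusted p = 9.49e-07). NCL footprints numbered 3846 over the 6 libraries and fell by 0.49 (SE 0.17, edgeR adjusted p = 0.0147). NPM1 mRNA was 744, 685 and 678 CPM in Pro and 365, 414 and 360 CPM in Sen (-0.89, SE 0.08, edgeR adjusted p = 1.05e-09). NPM1 footprints were 382, 441 and 466 CPM in Pro and 219, 281 and 243 CPM in Sen (-0.94, SE 0.16, edgeR adjusted p = 1.87e-06). Neither gene overlapped between the states in either layer, and in both the RPF change lay within 1 SE of the mRNA change. In CDS reads per kilobase of coding sequence and 1e6 reads, the mRNA level of NPM1 was 823 ± 74.1 in Pro and 482 ± 44.9 in Sen, and that of NCL 452 ± 15.8 and 325 ± 10.7 (mean ± SD, n = 3). These were the highest and second highest of the 47 members with a coding length in both states, while FBL went from rank 5 to rank 7 and NOLC1 from rank 14 to rank 25. NPM1 counts were fractional in 10 of 12 libraries, and the reason is not given in the sources used here.

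**Figure D2:**
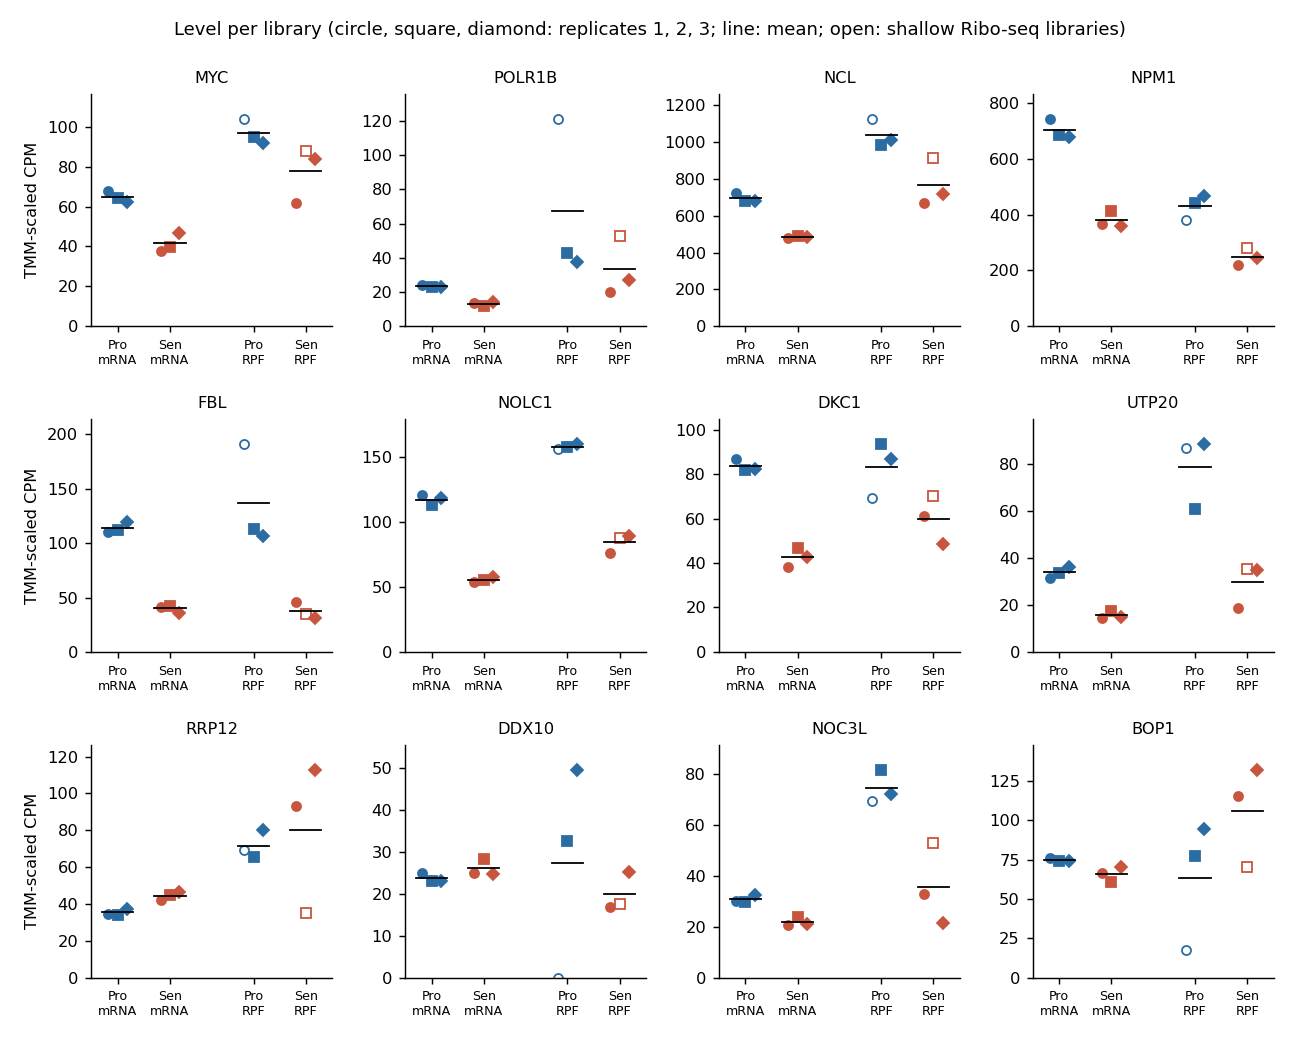
Level of 12 members in every library as TMM-scaled CPM, mRNA on the left of each panel and footprints (RPF) on the right; blue is Pro, red is Sen, lines are means, and open symbols are the shallow Ribo-seq libraries Pro 1 and Sen 2. FBL, NOLC1, NPM1 and UTP20 separate the states in both layers, and DDX10 shows 0 footprints in Pro 1.

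The 3 nucleolar cofactors all had lower mRNA, and only the RNA helicase DDX21 had lower footprints. DDX21 mRNA fell from 164, 158 and 169 CPM to 115.1, 112.3 and 122.8 CPM (log2 fold change -0.49, SE 0.07, edgeR adjusted p = 2.69e-06), and its RPF fell by 0.47 (SE 0.17). LYAR, a zinc finger protein of the nucleolus, fell by 0.40 in mRNA (SE 0.12), and its RPF change of -0.60 (SE 0.35) was not called. MYBBP1A, a nucleolar protein first described as a MYB partner, was the weakest of these in mRNA, with 62.7, 56.7 and 69.0 CPM in Pro and 56.6, 46.0 and 61.0 CPM in Sen. The states overlapped. Its call (-0.21, SE 0.10, edgeR adjusted p = 0.0638) was lost without Pro 3 (adjusted p = 0.281), without Sen 2 (adjusted p = 0.349), and without both shallow lysates (adjusted p = 0.431).

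Small subunit assembly held the widest range, from the large fall of UTP20 to the rise of RRP12. In mRNA 10 of 13 fell and 1 rose, with a median log2 fold change of -0.35. In footprints 10 fell and 1 rose, with a median of -0.72. UTP20, HEATR1, UTP14A, WDR43 and NOP14 belong to the small subunit processome, the particle that first forms on the precursor rRNA, and these 5 fell in both layers. EMG1, which also joins this particle, was called in RPF but not in mRNA, and NOP56, of the U3 particle within it, in mRNA but not in RPF. UTP20 mRNA was 31.5, 33.5 and 36.2 CPM in Pro and 14.6, 17.2 and 14.6 CPM in Sen (-1.12, SE 0.10, edgeR adjusted p = 2.54e-09). Its footprints were 86.8, 60.9 and 88.2 CPM in Pro and 18.8, 35.2 and 35.0 CPM in Sen, which gave the largest RPF fall of the members (-1.72, SE 0.27, edgeR adjusted p = 2.43e-07). HEATR1 fell by 0.67 in mRNA (SE 0.08) and by 1.183 in RPF (SE 0.20). NAT10, which acetylates 18S rRNA, fell by 0.83 and 0.72. NOB1, the nuclease that makes the 3′ end of 18S rRNA, fell by 0.59 in mRNA, and its RPF change of -0.26 (SE 0.24) was not called. LTV1 and BYSL, both factors of late small subunit precursors, fell in mRNA by 0.45 and 0.30, and in RPF LTV1 fell by 0.87 while BYSL stood at 0.21, not called. TSR1, a late factor of the subunit and the member of this group with the most mRNA reads, fell from 102, 98.4 and 99.6 CPM to 86.6, 86.2 and 83.3 CPM (-0.23, SE 0.07, edgeR adjusted p = 6.96e-03).

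RRP12, a late assembly and export factor, was the only member to rise in mRNA. It measured 34.8, 34.2 and 37.2 CPM in Pro and 42.2, 44.9 and 46.4 CPM in Sen (log2 fold change 0.33, SE 0.08, edgeR adjusted p = 1.23e-03). In RPF it was called at 0.38 (SE 0.20, edgeR adjusted p = 0.126), but the shallow Sen 2 lay at 35.2 CPM, below the 69.4, 65.3 and 79.9 CPM of Pro, while Sen 1 and Sen 3 had 93.1 and 112.8 CPM. The RPF call of RRP12 held under 3 of 13 alternatives, and with mRNA reads thinned to the depth of Ribo-seq the mRNA change was -0.35 with an adjusted p of 0.247.

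Of the 16 large subunit factors, 15 mRNAs fell and NOC2L was not called, with a median log2 fold change of -0.49. Footprints of 6 fell and of 1 rose, and 9 were not called, with a median of -0.33. WDR12 had the lowest mRNA fold change, from 28.1, 26.1 and 28.4 CPM to 16.7, 17.95 and 16.5 CPM (-0.68, SE 0.10, edgeR adjusted p = 1.92e-06). WDR12 works with PES1 and BOP1 in a complex needed for 5.8S and 28S rRNA maturation. PES1 mRNA fell from 105, 105 and 95.2 CPM to 71.5, 70.4 and 74.1 CPM and BOP1 mRNA from 76.2, 74.4 and 74.1 CPM to 66.5, 61.1 and 70.3 CPM. Their log2 fold changes were -0.50 (SE 0.07) and -0.18 (SE 0.08), and that of BOP1 was no longer called without both shallow lysates (adjusted p = 0.206). Footprints of the trio differed in sign, at -0.34 (SE 0.26) for WDR12, -0.03 (SE 0.19) for PES1 and 0.48 (SE 0.19, edgeR adjusted p = 0.0416) for BOP1, of which only BOP1 was called. The BOP1 call in RPF was lost with DESeq2 (adjusted p = 0.525), without Pro 2 in edgeR (adjusted p = 0.213) and without Sen 3 in edgeR (adjusted p = 0.155).

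EBNA1BP2, the member of this group with the most mRNA reads, fell from 135, 122 and 121 CPM to 99.9, 101 and 83.1 CPM (log2 fold change -0.41, SE 0.08, edgeR adjusted p = 1.49e-04), and its RPF fell by 0.50 (SE 0.18). NOC3L, a nucleolar complex protein, fell by 0.49 in mRNA (SE 0.09), from 30.02, 29.8 and 32.6 CPM to 20.8, 23.7 and 21.2 CPM. Its footprints fell by 1.31 (SE 0.25), from 69.4, 81.6 and 72.1 CPM to 32.8, 52.7 and 21.4 CPM, with no overlap. The related NOC2L showed no called change, with 86.2, 86.0 and 88.3 CPM in Pro and 90.7, 83.4 and 87.5 CPM in Sen (log2 fold change 0.00, 95% interval -0.14 to 0.15, edgeR adjusted p = 0.961). BRIX1 and NOP2, the latter an rRNA methyltransferase, fell in mRNA by 0.59 and 0.62 and in RPF by 1.06 and 0.89. GNL3, or nucleostemin, and NOP16 fell by 0.37 and 0.38 in mRNA and by 0.73 and 0.57 in RPF. RRP1B, MRTO4, RRS1, GRWD1 and NIP7 fell in mRNA by 0.65, 0.64, 0.54, 0.41 and 0.39, and their RPF changes, from -0.41 (RRP1B) to 0.14 (NIP7), were not called. PPAN, whose mRNA fell by 0.63, had 73 footprint reads in all, and its exons overlap those of the readthrough gene PPAN-P2RY11 on the same strand, so its counts are uncertain.

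Translational efficiency (TE), the footprints per mRNA of a lysate, was called changed in 5 of 48 members, 3 lower and 2 higher. That is 10.4% of members. It is near the share of all 7473 genes tested, of which 9.37% were called, 4.48% lower and 4.88% higher. The members' median TE log2 fold change was 0.03. The test was the interaction of library type and state over the 12 libraries, with the lysate as a block. The other 43 members had estimates from -0.44 (HEATR1) to 0.58 (PPAN), none called. Of these, POLR1A, DKC1, NOLC1, PES1 and RRS1 still had every Sen lysate above every Pro lysate in TE. A lack of overlap therefore does not mark the called genes. The median SE over members was 0.25.

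DDX10, an RNA helicase of small subunit assembly, had the largest TE change, -1.23 (SE 0.34, edgeR adjusted p = 0.0273). Its mRNA was 25.02, 22.9 and 23.0 CPM in Pro and 25.01, 28.2 and 24.8 CPM in Sen, and its footprints were 0, 32.7 and 49.5 CPM in Pro and 16.8, 17.6 and 25.3 CPM in Sen. In the deeper libraries the footprints were lower in Sen, and the 0 in Pro 1 and the 17.6 CPM in Sen 2 stand for 0 and 1 read. EMG1, a methyltransferase of 18S rRNA, gave -0.79 (SE 0.30, edgeR adjusted p = 0.127), and its per-lysate log2 TE of -0.45, -0.37 and -0.04 in Pro and -0.73, -2.64 and -1.42 in Sen did not overlap. The Sen 2 value comes from 0 footprint reads, so the pseudocount of 0.5 sets it, and the Pro 1 value rests on 2 reads. Its mRNA overlapped between the states, at 59.1, 54.7 and 53.0 CPM in Pro and 52.7, 54.9 and 49.3 CPM in Sen, and its footprints were 34.7, 41.6 and 51.3 CPM in Pro and 31.5, 0 and 17.5 CPM in Sen. EMG1 depends on which mRNA reads are counted. With CDS reads only, its mRNA fell by 0.58 (adjusted p = 6.8e-05) and its TE change was -0.33 with an adjusted p of 0.6. In the GENCODE annotation, EMG1 shares 3096 exonic bases with LPCAT3 on the opposite strand, and whether the counting used strand is not given in the sources used here. NOC3L gave -0.75 (SE 0.29, edgeR adjusted p = 0.136), from 1.38, 1.46 and 1.15 in Pro to 0.67, 1.38 and 0.07 in Sen, which overlap.

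The higher TE values were those of BOP1 and POLR1C. BOP1 footprints were 17.4, 77.2 and 94.8 CPM in Pro and 115.9, 70.3 and 132 CPM in Sen. Its log2 TE of -1.55, 0.07 and 0.36 in Pro and 0.80, 0.37 and 0.92 in Sen did not overlap, but the Pro 1 value rests on 1 footprint read and the Sen 2 value, next above Pro 3, on 4. The TE change was 0.62 (SE 0.21, edgeR adjusted p = 0.0809). POLR1C footprints were 86.8, 26.7 and 32.8 CPM in Pro and 46.9, 35.2 and 40.8 CPM in Sen, where the value of the shallow Pro 1 rests on 5 reads. Its TE change was 0.81 (SE 0.31, edgeR adjusted p = 0.129), with overlapping lysates. None of the 5 TE calls held under every alternative. DESeq2 called 0 of the 48 (0 at an unadjusted p under 0.05) and voom 0 (1 at an unadjusted p under 0.05), where edgeR's test had 9 at an unadjusted p under 0.05. Without Sen 1 edgeR called 0 (6 at an unadjusted p under 0.05), without Pro 1 it called 8, and without Pro 2, Pro 3 or Sen 3 it called 1.

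**Figure D3:**
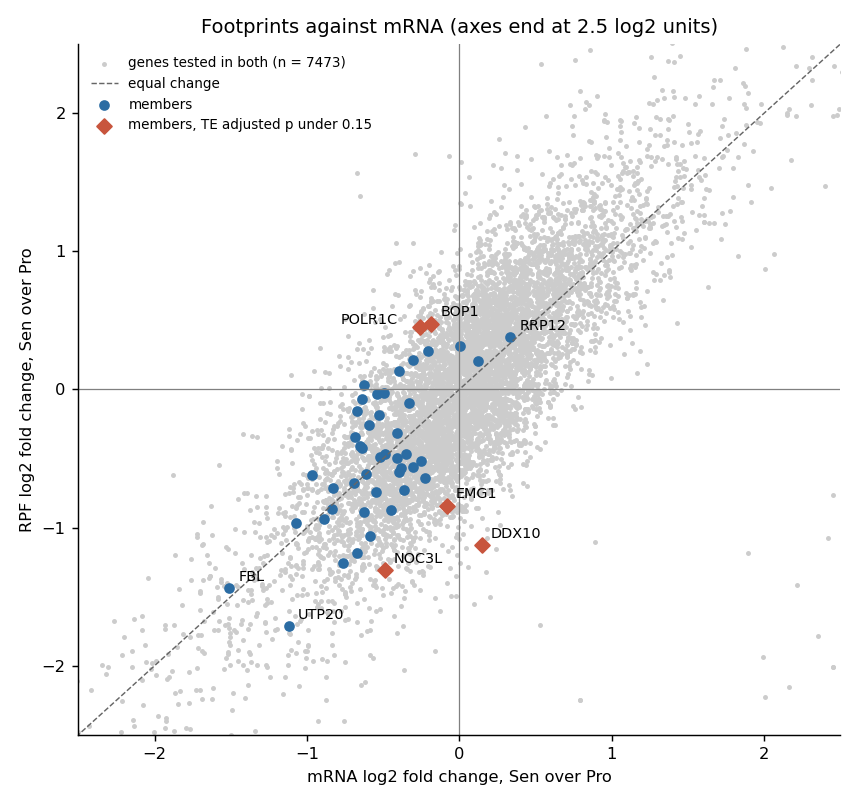
RPF against mRNA log2 fold change (Sen over Pro) of the 48 members (blue, and red where the TE change had an adjusted p under 0.15) over all genes tested in both (grey), with a dashed line of equal change; genes outside 2.5 log2 units are not drawn. Most members lie in the lower left quadrant near the line, while DDX10 and EMG1 lie below it near an mRNA change of 0.

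The rest of the pathway was taken from a list of 110 further ribosome biogenesis genes, all found in the tables. Of these, 81 had lower mRNA and 13 higher (median log2 fold change -0.37), to be read beside 37% lower and 36.6% higher among all genes. All 11 further Pol I genes fell. For snoRNP factors it was 6 of 9 lower and 2 higher, for small subunit assembly 27 of 43 lower and 8 higher, and for large subunit assembly 37 of 47 lower and 3 higher. The lowest were NOP53, a nucleolar large subunit factor, at -1.181 (SE 0.09), PWP2 of the small subunit processome at -0.98 (SE 0.15), and TCOF1, the Pol I cofactor treacle, at -0.94 (SE 0.09). The highest were SBDS, the factor that helps release EIF6 from new large subunits, at 0.83 (SE 0.07), the kinase RIOK3 at 0.73 (SE 0.08) and ZNF622, a cytoplasmic large subunit factor, at 0.71 (SE 0.08). SBDS mRNA was 99.7, 96.8 and 97.0 CPM in Pro and 167, 186 and 167 CPM in Sen. Footprints of SBDS, RIOK3 and ZNF622 rose as well, by 0.72, 1.001 and 1.02 on the log2 scale.

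Footprints of 46 of the 99 further genes tested were lower and of 9 higher, beside 26.9% lower and 27.5% higher among all genes. TE was called in 9, of which 6 were lower and 3 higher. That is 9.09% of the further genes, near the 9.37% of all genes. KRR1, a small subunit processome protein, had the lowest TE change, -1.24 (SE 0.32, edgeR adjusted p = 0.0142), with footprints of 34.7, 41.6 and 40.5 CPM in Pro and 15.4, 0 and 27.2 CPM in Sen. Like EMG1 it turned on the mRNA reads used: KRR1 mRNA was called higher at 0.24 over all regions and lower at -0.31 in CDS reads (adjusted p = 0.0159), and the TE call was lost (adjusted p = 0.241). ESF1 and RPF1 followed with -0.94 and -0.75, and of the genes called higher RRP1, TBL3 and EIF6 had 0.74, 0.66 and 0.54.

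The E-box was looked for in promoter windows because the members include MYC, whose complexes bind it. RefSeq windows of GRCh38.p14, from 250 bases before to 50 bases after the gene start, were matched for 41 of the 48 members. The motif CACGTG reads the same on both strands. It was present in 16 of the 41 windows, or 39.0% (exact 95% interval, 24.2% to 55.5%), against 980 of 10110 genes tested for mRNA, or 9.69%, and 7.27% of all 27305 windows. The interval treats the 41 windows as independent random draws, which a chosen list of genes is not, so it is no test of the list. No member had more than 1 copy, and 14 of the 16 began between 15 bases before and 42 bases after the start. With the bases before the start alone the share was 9.76%, beside 8.52% of tested genes. The looser motif CANNTG, which contains CACGTG, was present in 68.3% of members and 60.0% of tested genes.

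**Figure D4:**
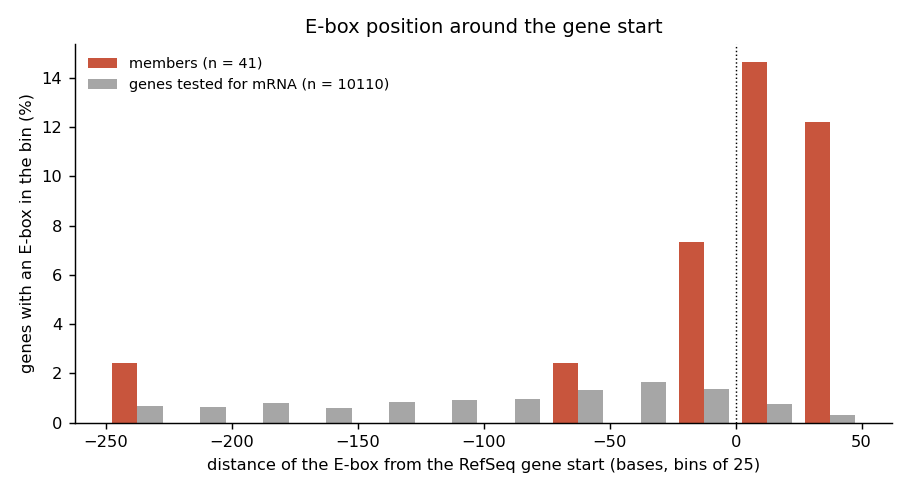
Share of genes with a CACGTG motif beginning in each bin of 25 bases around the RefSeq gene start, for 41 members (red) and 10110 tested genes (grey). Members reach 14.6% in the bin that opens at the start and 12.2% in the next, where tested genes have 0.78% and 0.33%.

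The windows of 6 members on which the results above turn are shown, 5′ to 3′ on the strand of the gene, with the E-box in capitals: FBL, RRP9, NAT10 and UTP20 fell in both layers, NOC3L had a called TE change, and MYBBP1A had no call in RPF. Their positions in GRCh38.p14 are chr19:39846356-39846385 (minus strand, FBL), chr3:51941892-51941921 (minus, RRP9), chr11:34105602-34105631 (plus, NAT10), chr12:101280083-101280112 (plus, UTP20), chr10:94362903-94362932 (minus, NOC3L) and chr17:4555340-4555369 (minus, MYBBP1A). The E-box begins 6 bases after the gene start in FBL, 19 in NOC3L and 27 in MYBBP1A, and 5, 15 and 10 bases before it in RRP9, NAT10 and UTP20.
FBL: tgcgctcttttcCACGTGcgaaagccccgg
RRP9: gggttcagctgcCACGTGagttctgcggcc
NAT10: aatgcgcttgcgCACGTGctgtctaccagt
UTP20: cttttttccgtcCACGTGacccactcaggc
NOC3L: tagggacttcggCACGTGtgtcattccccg
MYBBP1A: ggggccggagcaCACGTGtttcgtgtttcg

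Members with and without the motif had the same median mRNA change to 2 decimals. All 16 with it fell, with a median log2 fold change of -0.49 and a range from -1.51 (FBL) to -0.21 (MYBBP1A). Of the 25 windows without it, 21 belonged to genes that fell, and the median was also -0.49. In RPF 11 of the 16 and 14 of the 25 fell, with medians of -0.64 and -0.49. A motif match is a description of the sequence and shows no binding.

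Several members are also host genes of snoRNAs. In the GENCODE annotation, 9 of 48 members (18.8%) hold genes of snoRNAs or small Cajal body RNAs within their bounds, against 326 of 12291 tested genes (2.65%). NOP56, NOP58, NCL and GNL3 hold 3 each, DKC1, WDR43, TSR1 and PPAN 2 each, and POLR1C 1. All 9 host mRNAs fell, from -0.97 in DKC1 to -0.23 in TSR1, beside 43 of all 48 members and 37% of all tested genes. Host transcripts and their snoRNAs can be measured apart only in part here, because the RNA was enriched for poly(A) and the footprints were selected by size.

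NHP2, a core protein of H/ACA particles, stood out among the members by where its footprints lay, and it was chosen for this after its values were seen. In the deeper libraries 11 of 76 and 13 of 152 of its 5′ UTR and CDS footprints fell in the 5′ UTR in Pro 2 and Pro 3, and 74 of 166 and 32 of 63 in Sen 1 and Sen 3. These are 14.5% (exact 95% interval, 7.45% to 24.4%) and 8.55% (4.63% to 14.2%) in Pro against 44.6% (36.9% to 52.5%) and 50.8% (37.9% to 63.6%) in Sen. The shallow Pro 1 and Sen 2 added 1 of 4 and 1 of 3. Summed over libraries the share was 10.8% in Pro and 46.1% in Sen, a difference of 35.3 percentage points. None of the 5576 genes with at least 50 such footprints in each state had a larger rise, and the median over those genes was -0.13 points. Among the other 40 members tested this way the difference ran from -4.10 to 3.26 points.

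The 5′ UTR share of NHP2 in RNA-seq did not separate the states, with 15.2%, 21.9% and 33.0% in Pro and 19.6%, 20.5% and 26.7% in Sen. Over all genes, the 5′ UTR share of footprints was also higher in Sen libraries of like depth, at 5.06% in Sen 1 and 14.5% in Sen 3 against 3.78% in Pro 2 and 2.81% in Pro 3, and its part in the NHP2 result was not tested. CDS footprints of NHP2 fell by 0.52 on the log2 scale (SE 0.21, edgeR adjusted p = 0.0394). NHP2 shares exonic bases with RMND5B on the opposite strand. The tables give reads per region, so positions within the 5′ UTR were not analysed here. NHP2 alone held 46.3% of the 285 footprints in the 5′ UTR of all members, 17 members had none, and only LYAR (8.77%) also exceeded 5%.

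**Figure D5:**
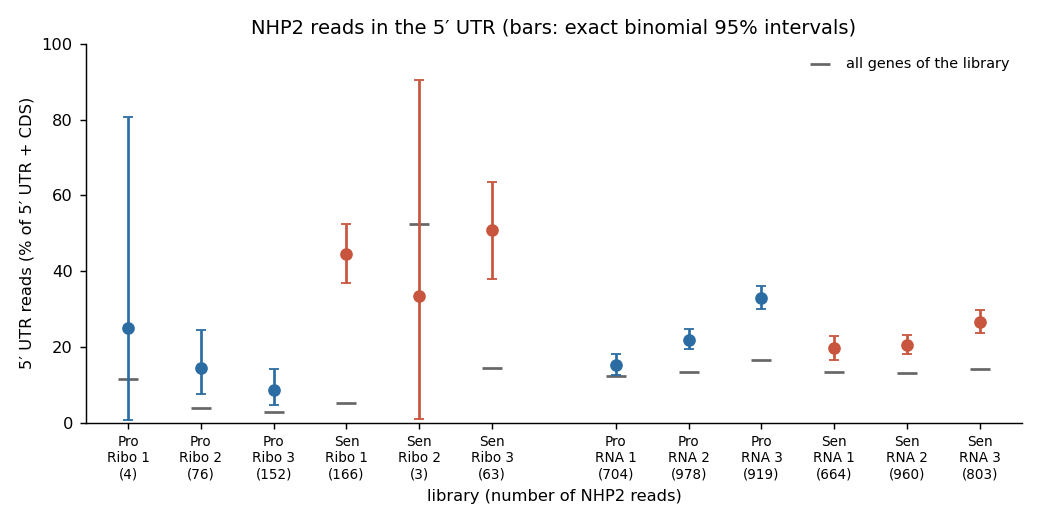
Share of NHP2 reads in the 5′ UTR, of those in 5′ UTR and CDS, by library; points are shares, bars are exact binomial 95% intervals, grey dashes give all genes of the library and the numbers in brackets are NHP2 reads. Sen 1 and Sen 3 footprints lie at 44.6% and 50.8%, above the intervals of Pro 2 and Pro 3, and RNA-seq shows no such split.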

How the data were processed

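The deposited tables hold, per gene symbol, reads the authors assigned to 5′ UTR, CDS, 3′ UTR and non-coding classes. The deposited values are expected counts made by the authors from aligned reads, since some are fractions of a read. The planned tests had assumed plain counts, so regions were summed and rounded. Per the labels' processing notes the authors used cutadapt 1.18, Bowtie 1.0.1, SAMtools 1.8 and DESeq2 1.22.2. Genome build, annotation, strand and multi-mapping rules are not given in the sources used here. RNA-seq used poly(A)-enriched RNA, and Ribo-seq size-selected fragments from RNase-digested lysates with cycloheximide, which stalls ribosomes. The authors' anota2seq categories were not rebuilt.

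Genes with a CDS read in some library (16451) were tested with edgeR 4.0.16 (R 4.3.3; filterByExpr, TMM within library type, quasi-likelihood), two-sided, and SE was taken from the coefficient and F statistic. TE per lysate used a pseudocount of 0.5. P-values measure the spread between 3 cultures. In RPF and TE the shallow Pro 1 and Sen 2, with 2.28% of the CDS reads, add little to this. Those p-values rest mainly on the deeper libraries. No pair of libraries was a duplicate. Scripts were tested on simulated data. Wilson and exact binomial intervals of reads and the floor of 3 reads cover counting error only. Alternatives were DESeq2 1.42.0, voom (limma 3.58.1), other factors, filters, regions, blocks and left-out lysates. Genes were named by role group (most mRNA reads, lowest and highest mRNA change), with every TE call and every rise, plus MYC, and from the 110 further genes the 3 lowest and 3 highest mRNA and TE changes called. Others are named as examples. The members and lists were chosen with earlier results of these data known. Overlaps used GENCODE v44lift37 (GRCh37). There 18 members share exonic bases with other protein-coding genes, 13 on the opposite strand and 6 on the same strand. Among them NOP2 shares 2550 bases on the same strand, and HEATR1 2095 and TSR1 1146 on the opposite strand. The part of this in their counts was not tested. Figures were drawn with matplotlib. One further marker list is not reported here.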

Additional observations from a re-analysis of the deposited data

Results flagged for a closer look

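One snoRNA inside a member was read in a class outside the comparisons above and was higher in senescent than in proliferating libraries. SNORD110, a box C/D snoRNA gene within NOP56, had 1, 0 and 4 Ribo-seq reads in Pro and 31, 7 and 56 in Sen. Scaled to 1e6 assigned reads this was 6.31, 0 and 2.07 in Pro and 14.4, 19.2 and 52.5 in Sen, with no overlap. It was picked out as the hosted snoRNA with at least 30 reads whose Sen libraries all lay above the Pro libraries, among 21 hosted genes listed. SNORD105B, inside PPAN, had the same order with 14 reads in all. Others had the opposite order: in Ribo-seq SNORA75 inside NCL (46.5 reads), SNORD11B inside NOP58 (40 reads) and SNORA36A inside DKC1 (24.5 reads), and in RNA-seq SNORD86, also inside NOP56 (74 reads). Non-coding reads took a very uneven share of the Ribo-seq libraries, with CDS shares from 15.0% to 88.8%, and the part of this in the SNORD110 result was not tested. NOP56 mRNA itself fell.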

How the results depend on the processing

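The number of members called in mRNA ran from 42 to 45 under every alternative on full libraries and was 31 of 46 with RNA-seq reads thinned to Ribo-seq depth, when 52 further pathway genes were called in place of 94. Of the called mRNA changes of members, 32 of 44 held under every alternative, against 6 of 30 in RPF and 0 of 5 in TE. Footprints depend on depth and tool. With DESeq2, 7 members and 7 further genes were called in RPF, and with at least 10 counts in every library 3 of the 4 members and 0 of the 1 further gene that could be tested. TE calls numbered 2 members and 2 further genes with genes of at least 1 read kept, 0 and 1 with at least 10 counts, 0 and 0 with DESeq2, 0 and 0 with voom, and 11 and 16 without the lysate block. Without both shallow lysates, 16 further genes were called in TE. The causes were not tested, beyond the fewer genes or reads that filters and thinning leave. Library totals in place of TMM moved the median of all genes to -0.11 in mRNA and -0.14 in RPF, and that of the members to -0.61 and -0.65.

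Leaving out each lysate in turn gave 43 to 45 members called in mRNA, 15 (without Pro 3) to 31 in RPF, with 18 without Sen 1, and 0 (without Sen 1) to 8 (without Pro 1) in TE. For the further genes it gave 87 to 92, 34 (without Sen 1) to 58, and 1 (without Sen 1 or Sen 3) to 12, with 2 without Pro 2 or Pro 3.

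Deviations of same-numbered Pro and Sen libraries correlated at 0.08, -0.20 and 0.23 in mRNA, where not every library correlated best with its own number. In RPF the same-numbered values were small, at 0.03, 0.03 and 0.05. Every RPF library nevertheless correlated best with its own number, the other pairs running from -0.038 to -0.0061. With the replicate number as a block, 44 members were called in mRNA, 13 in RPF and 7 in TE, and 94, 27 and 13 further genes. RPF changes of RRN3, POLR1A, LYAR and RRS1 then had the opposite sign, at -0.024, 0.038, 0.11 and 0.29.

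Signs otherwise turned mostly in changes that were near 0. In mRNA, NOC2L was -0.10 with library totals, -0.0051 with genes of at least 1 read, -0.022 with CDS reads and -0.26 when thinned, RRP12 was -0.35 when thinned, and with CDS reads DDX10 was -0.059 and KRR1 -0.31. In RPF, PES1 was 0.012 with DESeq2 and 0.0020 with voom, RRS1 0.22 and 0.028, and PPAN -0.057 with DESeq2. With library totals, PPAN was -0.11, NIP7 -0.0036 and TBL3 -0.0057. Leaving out 1 lysate moved NOC2L mRNA from -0.027 to 0.031, and RPF of POLR1A from -0.28 to 0.025, NOP56 from -0.29 to 0.021, LYAR from -0.95 to 0.015, PES1 from -0.17 to 0.25, RRS1 from -0.17 to 0.33, NIP7 from -0.12 to 0.51, PPAN from -0.058 to 0.26 and MRTO4 from -0.34 to 0.060. The E-box share of members was 9.76% with the bases before the start alone and 68.3% for CANNTG.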
